A study of Saccharomyces cerevisiae with 14 samples.

Results

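RNA per cell was compared between quiescent cells of an RPD3 deletion strain and wild-type cells at the diauxic shift, conditions that lie in different genotypes and at different points of the culture but have a similar median level per gene. The comparison asks whether mutant quiescent cells resemble wild-type diauxic cells gene by gene or have a program of their own. The cells were Saccharomyces cerevisiae (budding yeast) of the W303 background, and total RNA was sequenced with strand-specific libraries after spike-in transcripts (ERCC) were added and ribosomal RNA was removed. The 6 conditions of the study were rpd3 deletion and wild-type cells, each harvested in logarithmic growth (log), 2 hours after glucose exhaustion (DS, the diauxic shift) and as the dense fraction of 7-day cultures purified on Percoll (Q, quiescent). Each condition had 2 isolates, and 4 of the 14 libraries belong to the comparison made here. The extra libraries are of wild-type log cells, of whose 4 libraries 2 received 0.2 spike equivalents and 2 received 1; how these were combined into the wild-type log values given below is not stated. The rpd3 strain lacks the gene in every cell and at every harvest, and the labels name no other allele or agent in either strain.

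The deposited table gives 1 value per condition, as log2 of FPKM (a fragment count corrected for gene length and sequencing depth) that the authors rescaled by means of the spike-ins so that it stands for RNA per cell. Every value below is therefore a single pooled value, and the separate values of the isolates behind it are not given. No SD, interval or test could be had, the read depth is unknown, and "higher" and "lower" say only how 2 numbers stand to each other. Of 6598 uniquely named genes, 153 were blank in rpd3 Q or wild-type DS cells and 84 were under 1 FPKM in both, which left 6361 genes. Changes are given as log2(FPKM + 1) in rpd3 Q cells minus the same in wild-type DS cells, which understates the change of genes near or below 1 FPKM. Genes were counted as higher or lower at 2-fold, a difference of 1 on that scale.

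Rpd3 is a histone deacetylase that works in large and small complexes and represses transcription at promoters to which DNA-binding proteins such as Ume6 bring it. At the diauxic shift yeast runs out of glucose and turns to the ethanol it has made, switching on respiration, the glyoxylate cycle and gluconeogenesis while the production of ribosomes is cut back. Quiescent cells follow later: they no longer divide, store trehalose and glycogen, and hold little messenger RNA.

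RPD3 itself was listed at 0.0279 FPKM in rpd3 Q cells, against 37.7 FPKM in wild-type DS cells. Its value in rpd3 DS cells was 0.941 FPKM, the entry for rpd3 log cells was blank, and wild-type log and Q cells had 70.8 and 2.35 FPKM. The values were low in the strain labelled as the deletion. The median over all uniquely named genes was 19.0 FPKM in rpd3 Q cells, against 20.1 FPKM in wild-type DS cells, while rpd3 log and DS cells had medians of 50.2 and 33.9 FPKM and wild-type log and Q cells 38 and 1.37 FPKM. For bulk RNA of this kind, fewer cells that express a gene and less RNA of it in each cell cannot be told apart.

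Behind the similar medians the individual genes were often different. In rpd3 Q cells 664 of 6361 genes were higher than in wild-type DS cells (10.4%) and 1318 were lower (20.7%), while 4379 genes (68.8%) lay within 2-fold. The median change was -0.20, and 10% of genes lay below -1.64 and 10% above 1.03. Larger differences were mostly decreases: 158 genes (2.48%) lay above and 422 (6.63%) lay below the level in wild-type DS cells by 4-fold or more, and at 16-fold there were 6 higher and 49 lower genes. The cut-off lay in a densely filled region, with 227 genes whose change had a size between 1.0 and 1.1 and 285 between 0.9 and 1.0. The genes lower in rpd3 Q cells had a median of 21.7 FPKM there and 76.2 FPKM in wild-type DS cells, while the higher genes had a median of 22.1 FPKM in rpd3 Q cells and 6.83 FPKM in wild-type DS cells.

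**Figure D1:**
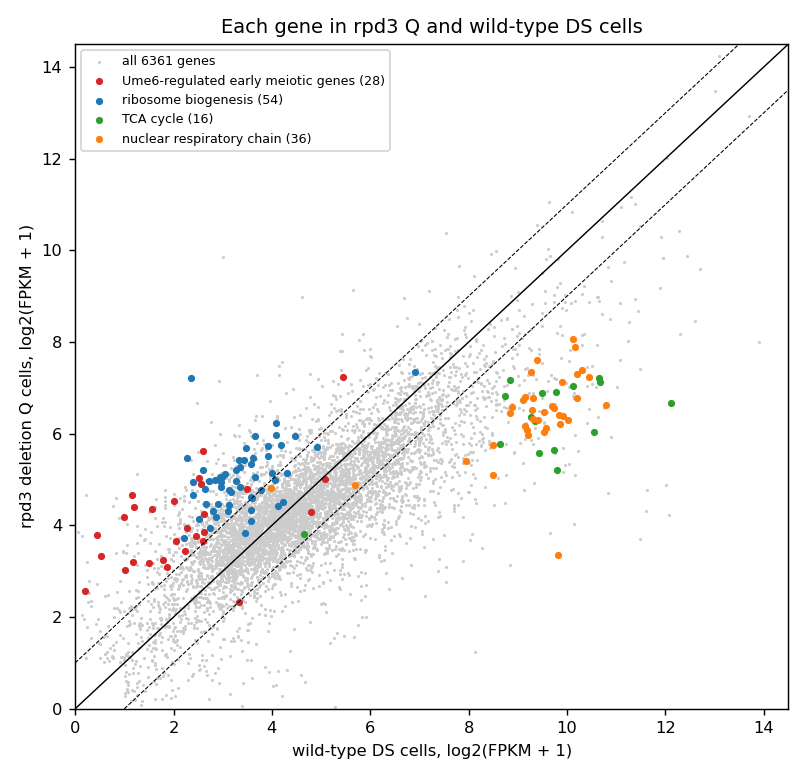
Each point is a gene, with its level in rpd3 Q cells on the vertical axis and in wild-type DS cells on the horizontal axis, both as log2(FPKM + 1). The solid line marks equal levels and the dashed lines 2-fold. Early meiotic genes and ribosome biogenesis genes sit mostly above the lines, and genes of the TCA cycle and of the nuclear-encoded respiratory chain mostly below them.

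The range of levels was narrower in rpd3 Q cells. In the 6301 genes with no blank column, the SD across genes of the log2 level was 1.73 in rpd3 Q cells, against 2.11 in wild-type DS cells, and it lay between 2.05 and 2.32 in the other 4 conditions. The lowest and highest 10% of genes began at 5.66 and 80.3 FPKM in rpd3 Q cells and at 4.75 and 143 FPKM in wild-type DS cells. Only 18 genes reached 1000 FPKM in rpd3 Q cells, against 87 in wild-type DS cells. The 200 highest genes held 42.5% of the summed FPKM in rpd3 Q cells and 52.5% in wild-type DS cells. The highest values in rpd3 Q cells were those of NME1 and RPR1, the RNA parts of RNase MRP and RNase P, with 19295.8 and 11323.2 FPKM, against 8701.2 and 8243.3 FPKM in wild-type DS cells. Genes were also put into 10 bins by their mean level over all 6 conditions. The median change was 0.01 in the lowest bin and -0.83 in the highest, where 282 of 636 genes were lower (44.3%) and 31 higher (4.87%). Gene length moved with the change as well: of 5 bins by annotated length, the shortest (median 429 bases) had a median change of -0.54 and the longest (median 2880 bases) -0.03. The part of level and length in the changes of the gene groups below was not tested.

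To place rpd3 Q cells among the conditions, each column was centred on its median gene, and the 6284 genes with a value in all 6 columns and at least 1 FPKM in any of them were counted when they lay at least 2-fold apart. By this measure rpd3 Q cells stood nearest to rpd3 DS cells, with 1479 genes apart (23.5%) and a median distance of 0.51 (log2). Wild-type DS cells came next, with 1890 genes apart (30.1%) and a median distance of 0.61. rpd3 log cells followed with 2145 genes (34.1%), wild-type log cells with 2447 (38.9%) and wild-type Q cells with 2976 (47.4%). All of these distances use the same rpd3 Q column. The order depends on the centring: on the scale per cell, as deposited, wild-type DS cells were nearest with 1948 genes apart and rpd3 DS cells next with 2719. Among all 15 pairs of conditions the pair of rpd3 Q and wild-type DS cells ranked 5 in order of closeness; the closest pair, rpd3 log and wild-type log cells, had 8.18% of genes apart, and rpd3 DS and wild-type DS cells had 18.3%. Across these genes the Spearman correlation of levels in rpd3 Q and wild-type DS cells was 0.77, a description over genes that share the same libraries, lengths and annotation.

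**Figure D2:**
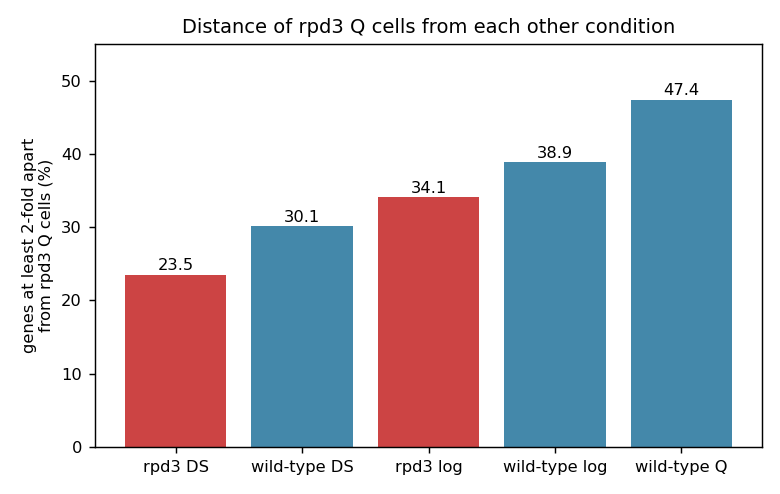
Bars give the percentage of 6284 genes that lay at least 2-fold from rpd3 Q cells in each other condition, with columns centred on their median genes; rpd3 conditions are red and wild-type conditions blue. The bar for rpd3 DS cells is the lowest at 23.5%, wild-type DS cells stand at 30.1%, and wild-type Q cells are highest at 47.4%.

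The genes by which diauxic cells are usually known were low in rpd3 Q cells. The 4 gluconeogenesis genes of the list were all lower. FBP1, encoding the gluconeogenic fructose-1,6-bisphosphatase, had 12.1 FPKM in rpd3 Q cells, against 2880.3 FPKM in wild-type DS cells (change -7.78), and PCK1, encoding phosphoenolpyruvate carboxykinase, had 28.3 FPKM against 4141.7 FPKM (change -7.15). The glyoxylate enzymes MLS1 (malate synthase) and ICL1 (isocitrate lyase) had 19.0 and 26.4 FPKM in rpd3 Q cells, against 3097.7 and 3162.8 FPKM in wild-type DS cells. These genes were high in DS cells of both genotypes and low everywhere else: FBP1 had 3848.3 FPKM in rpd3 DS cells, 10.6 and 8.50 FPKM in rpd3 and wild-type log cells, and 3.04 FPKM in wild-type Q cells. SFC1, a mitochondrial succinate-fumarate carrier, followed with 13.3 FPKM in rpd3 Q cells and 800.1 FPKM in wild-type DS cells. Over the whole list of gluconeogenesis, glyoxylate cycle and non-fermentable carbon use, 21 of 30 genes were lower and 2 higher, with a median change of -1.78. The 2 that went the other way were CIT3, a mitochondrial citrate and methylcitrate synthase, with 499.7 FPKM in rpd3 Q cells and 102 FPKM in wild-type DS cells, and the acetate transporter gene ADY2, with 1503 FPKM against 671 FPKM. Genes for the first steps of ethanol use were less far apart: ADH2, the alcohol dehydrogenase that consumes ethanol, had 932 FPKM in rpd3 Q cells and 5549 FPKM in wild-type DS cells, and ACS1, an acetyl-CoA synthetase, 599 FPKM and 1295 FPKM.

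Nuclear genes for mitochondrial energy production were lower as groups. In the TCA cycle 15 of 16 genes were lower, with a median change of -3.07 and medians of 91.0 FPKM in rpd3 Q cells and 782 FPKM in wild-type DS cells. ACO1, aconitase, had 101 FPKM in rpd3 Q cells and 4448.2 FPKM in wild-type DS cells, and IDH2, a subunit of NAD-dependent isocitrate dehydrogenase, had 35.8 FPKM and 883 FPKM. Of 36 nuclear genes of the respiratory chain and ATP synthase 34 were lower, with a median change of -2.98; these included all 13 ATP synthase genes and all 9 genes of complex III. CYC1, the main cytochrome c, had 9.27 FPKM in rpd3 Q cells and 906 FPKM in wild-type DS cells. Its paralogue CYC7 differed less, with 28.6 FPKM against 50.6 FPKM, and COX5B, the form of a cytochrome oxidase subunit used at low oxygen, had 27.3 FPKM in rpd3 Q cells and 14.7 FPKM in wild-type DS cells.

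The mitochondrial ribosomal protein genes were lower too, 57 of 70, with medians of 18.4 FPKM in rpd3 Q cells and 51.4 FPKM in wild-type DS cells and a median change of -1.43. The 8 genes encoded in mitochondrial DNA stood apart from these nuclear genes: none was 2-fold higher or lower, and their median change was -0.25. COX1, a subunit of cytochrome oxidase made in the mitochondrion, had 2293 FPKM in rpd3 Q cells and 2507 FPKM in wild-type DS cells, and COB, cytochrome b, had 1588 FPKM and 1667 FPKM.

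Genes of glycolysis, the breakdown of glucose, were lower as well. All 10 glycolytic enzyme genes were lower. PGK1, phosphoglycerate kinase, had 130 FPKM in rpd3 Q cells and 1546 FPKM in wild-type DS cells, and TDH1, a glyceraldehyde-3-phosphate dehydrogenase, 47.0 FPKM and 858 FPKM. Over the list with fermentation and hexose phosphorylation 15 of 20 genes were lower, and the exception past 2-fold was HXK2, the hexokinase of growth on glucose, with 98.6 FPKM in rpd3 Q cells and 28.1 FPKM in wild-type DS cells. Genes of trehalose and glycogen metabolism were lower in 10 of 21 cases and higher in none, led by TSL1, a subunit of trehalose synthase, with 20.9 FPKM in rpd3 Q cells and 218 FPKM in wild-type DS cells.

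HXT2, a high-affinity glucose transporter, had the highest increase of all genes at or above 7.38 FPKM in either condition, the 25th percentile of the table. It had 929 FPKM in rpd3 Q cells, against 7.02 FPKM in wild-type DS cells (change 6.86). Its levels in rpd3 and wild-type log cells were 998 and 1250.2 FPKM, so that rpd3 Q cells stood at the level of growing cells, while rpd3 DS and wild-type Q cells had 25.3 and 33.8 FPKM. The hexose transporters did not share this: 4 of 18 were higher and 4 lower, with a median change of 0.02. HXT5, a transporter gene of slow growth, had 361 FPKM in rpd3 Q cells and 1879 FPKM in wild-type DS cells, and HXT7 and HXT6, which are nearly identical and share reads, had 934 and 897 FPKM in rpd3 Q cells and 808 and 904 FPKM in wild-type DS cells. RTS3, a putative component of a protein phosphatase, had 506 FPKM in rpd3 Q cells and 23.4 FPKM in wild-type DS cells, and 206 and 92.7 FPKM in rpd3 and wild-type log cells. The 15 largest increases and decreases were taken with genes that have only a systematic name passed over below rank 3. Among these increases were also single transporters and both glycerol-phosphatase genes. The peptide transporter gene PTR2 had 153 FPKM in rpd3 Q cells and 12.03 FPKM in wild-type DS cells, and the glycerol-phosphatases RHR2 and HOR2, paralogues that may share reads, had 561 and 187 FPKM in rpd3 Q cells and 48.8 and 17.3 FPKM in wild-type DS cells. ZRT1, the high-affinity zinc transporter, had 178 FPKM in rpd3 Q cells and 16.7 FPKM in wild-type DS cells.

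**Figure D3:**
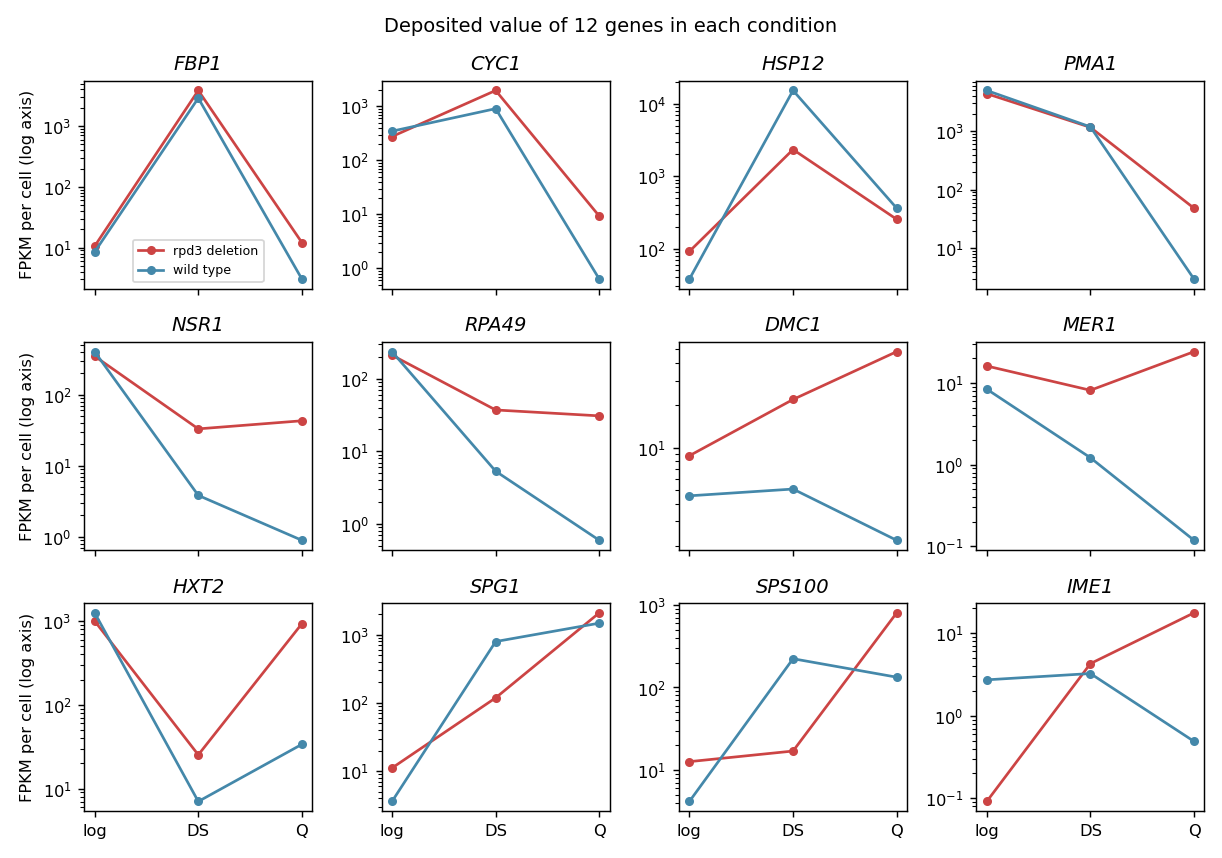
Deposited FPKM (log axis) of 12 genes in log, DS and Q cells, rpd3 deletion in red and wild type in blue, 1 value per point. FBP1, CYC1, HSP12 and PMA1 in the top row are far lower in rpd3 Q cells than in wild-type DS cells; NSR1, RPA49, DMC1 and MER1 in the middle row are higher; in the bottom row HXT2, SPG1, SPS100 and IME1 are also higher in rpd3 Q cells.

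Stress genes were mostly lower, 33 of 43, with a median change of -2.16 and medians of 127 FPKM in rpd3 Q cells and 613 FPKM in wild-type DS cells. HSP12, a small membrane-associated stress protein and the highest of all genes in wild-type DS cells, had 254 FPKM in rpd3 Q cells and 15297.4 FPKM in wild-type DS cells. It had 2336.3 FPKM in rpd3 DS cells and 361 FPKM in wild-type Q cells. YHB1, a flavohaemoglobin that detoxifies nitric oxide, had 15.4 FPKM in rpd3 Q cells and 1135 FPKM in wild-type DS cells; YGP1, a secreted glycoprotein of nutrient limitation, had 33.5 FPKM and 1152 FPKM. SSA3, a cytosolic Hsp70 chaperone of starved cells, was the exception among the stress genes, with 697 FPKM in rpd3 Q cells and 274 FPKM in wild-type DS cells. CTT1, the cytosolic catalase, had 8.67 FPKM in rpd3 Q cells and 167 FPKM in wild-type DS cells. On the scale per cell its value in rpd3 Q cells was below those of all other conditions. Relative to the median gene (19.0 FPKM in rpd3 Q cells) it was not the lowest. In rpd3 and wild-type log cells CTT1 had 15.6 and 13.1 FPKM, beside medians of 50.2 and 38.0 FPKM.

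Genes used as markers of quiescent and stationary cells did not move as a block. SPG1 and SPG4, named for their need in stationary phase, had 2110.0 and 1820.3 FPKM in rpd3 Q cells and 798 and 1092 FPKM in wild-type DS cells; wild-type Q cells had 1487 and 706 FPKM. SIP18 and GRE1, which encode hydrophilins induced by desiccation, had 352 and 489 FPKM in rpd3 Q cells and 6195 and 2680 FPKM in wild-type DS cells, and HSP26, a small heat shock protein, had 771 FPKM and 6649 FPKM. SPG1 was thus above and the hydrophilins below their levels in wild-type DS cells, and SPG4 was higher by less than 2-fold. Over the stationary phase list 3 of 33 genes were higher and 16 lower, with a median change of -0.58. SPG5, a proteasome regulator of stationary phase, had 1012 FPKM in rpd3 Q cells and 375 FPKM in wild-type DS cells, and the third higher gene was the spore wall gene SPS100 with 807 FPKM and 223 FPKM. FMP45, a membrane protein of eisosomes, had 21.5 FPKM in rpd3 Q cells and 428 FPKM in wild-type DS cells.

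The early genes of meiosis were higher almost throughout. Yeast in growth keeps these genes off through Ume6, which binds the URS1 element before them and recruits Rpd3; the list was drawn from genes known for that control. Of 28 genes 25 were at least 2-fold higher in rpd3 Q cells and 1 was lower, with a median change of 1.74 and medians of 14.0 FPKM in rpd3 Q cells and 3.41 FPKM in wild-type DS cells. Most of these genes have low levels: with a pseudocount of 10 FPKM in place of 1, 10 of the 28 passed 2-fold and the median change was 0.77. The list's medians were 11.9 and 11.3 FPKM in rpd3 log and DS cells and 5.22 and 0.415 FPKM in wild-type log and Q cells. MER1, a regulator of meiotic splicing, had 24.2 FPKM in rpd3 Q cells and 1.22 FPKM in wild-type DS cells. DMC1, the meiotic recombinase, had 48.2 FPKM in rpd3 Q cells and 5.08 FPKM in wild-type DS cells, and HOP1, an axis protein of meiotic chromosomes, 31.8 FPKM and 4.76 FPKM. The lower gene was NDT80, the regulator that starts the middle phase of meiosis, with 4.02 FPKM in rpd3 Q cells and 9.09 FPKM in wild-type DS cells.

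The inducer of meiosis IME1 had 17.6 FPKM in rpd3 Q cells and 3.24 FPKM in wild-type DS cells, and no other condition exceeded 4.28 FPKM. Middle and late sporulation genes had no common direction: 4 of 26 were higher and 3 lower, with a median change of -0.17. SPO20 and MPC54, needed for the membrane that encloses spores, had 12.01 and 15.7 FPKM in rpd3 Q cells and 1.67 and 3.37 FPKM in wild-type DS cells. The spore wall genes DIT1 and DIT2 were low in both conditions, with 1.89 and 6.02 FPKM in rpd3 Q cells and 2.96 and 3.50 FPKM in wild-type DS cells.

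The upstream sequences of MER1, SAE3 and SPO16 are shown because each holds the core of URS1, GGCGGC or its reverse complement. All were among the 15 largest increases, with systematic names below rank 3 passed over. They were read from the RefSeq genome of the reference strain S288C (R64), not of W303, 5′ to 3′ on the coding strand, and run up to the stated number of bases before the start codon. Capitals mark the URS1 core, and in SPO16 also a copy of GATGAG, described below. SAE3 and MND1 act together with DMC1 in meiotic recombination, and SPO16 promotes crossing over.

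MER1, 130 to 85 bases before the start codon: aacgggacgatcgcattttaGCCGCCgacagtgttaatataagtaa

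SAE3, 129 to 84 bases before the start codon: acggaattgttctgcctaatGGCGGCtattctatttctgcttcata

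SPO16, 168 to 63 bases before the start codon: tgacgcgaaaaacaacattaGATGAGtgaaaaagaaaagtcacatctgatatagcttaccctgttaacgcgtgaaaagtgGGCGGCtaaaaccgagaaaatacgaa

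SAE3 had 12.9 FPKM in rpd3 Q cells and 0.355 FPKM in wild-type DS cells, and SPO16 had 20.03 FPKM and 1.31 FPKM. Among the 15 largest increases, with systematic names below rank 3 passed over, 14 had an upstream sequence. Of these, 6 held the URS1 core within 300 bases: the 3 genes shown, HXT2, the cis-prenyltransferase gene SRT1 and the reading frame YJR005C-A. None of the 15 largest decreases, taken in the same way, did. Over all 5810 genes with an upstream sequence, 299 held it (5.15%). It was present before 57 of 606 higher genes (9.41%) and 64 of 1219 lower genes (5.25%). The letters were found before 17 of the 28 early meiotic genes, which were listed for this element, so that this share is no result.

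Genes for the production of ribosomes were the other group higher in rpd3 Q cells. Of 54 ribosome biogenesis genes 43 were higher and none lower, with a median change of 1.63. Their medians were 30.6 FPKM in rpd3 Q cells, 9.12 FPKM in wild-type DS cells, 169 and 37.5 FPKM in rpd3 log and DS cells and 174 and 1.12 FPKM in wild-type log and Q cells. In rpd3 Q cells these genes thus stood far below growing cells of either genotype and near rpd3 DS cells. DBP2, an RNA helicase, had 148 FPKM in rpd3 Q cells and 4.14 FPKM in wild-type DS cells, and NSR1, the yeast nucleolin, had 43.0 FPKM and 3.82 FPKM. HAS1 and SSF1, factors of ribosomal subunit assembly, had 35.9 and 29.9 FPKM in rpd3 Q cells and 5.03 and 4.28 FPKM in wild-type DS cells.

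Genes for RNA polymerases I and III, which make ribosomal and transfer RNA, followed the same direction while those for RNA polymerase II did not. Of the 19 subunits of polymerases I and III 12 were higher and none lower, with a median change of 1.22; with a pseudocount of 10 FPKM, 3 were higher and the median was 0.76. RPA49, a polymerase I subunit, had 30.7 FPKM in rpd3 Q cells and 5.33 FPKM in wild-type DS cells, and RPC82, a polymerase III subunit, 22.0 FPKM and 7.70 FPKM. Of the 12 polymerase II and common subunits none passed 2-fold in either direction, with a median change of 0.06. The cytoplasmic ribosomal proteins themselves were close to their level in wild-type DS cells: 14 of 136 were higher (10.3%) and 2 lower (1.47%), with medians of 147 FPKM in rpd3 Q cells and 123 FPKM in wild-type DS cells. Many of these proteins have 2 nearly identical gene copies, whose reads the counting could have divided in ways that are not stated. Translation factors were close too, with 1 of 30 higher and 2 lower.

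The upstream sequences of DBP2 and NSR1 are shown because they hold PAC (GATGAG) next to an RRPE-like element (AAATTTTC), a pair common before genes of ribosome production; the stress gene HSP12 is shown beside them for its stress response elements (AGGGG). PAC is bound by Dot6 and Tod6, repressors that recruit Rpd3, RRPE by Stb3, and the stress response element by the activators Msn2 and Msn4. Strain, source and direction are as above, and capitals mark the searched letters on either strand, with overlapping copies joined.

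DBP2, 175 to 119 bases before the start codon: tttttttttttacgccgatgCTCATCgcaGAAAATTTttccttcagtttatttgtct

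NSR1, 207 to 144 bases before the start codon: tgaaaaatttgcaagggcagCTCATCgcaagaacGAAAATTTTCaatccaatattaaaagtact

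HSP12, 252 to 166 bases before the start codon: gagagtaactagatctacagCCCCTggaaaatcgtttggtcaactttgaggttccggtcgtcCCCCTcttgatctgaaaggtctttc

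PAC was present within 300 bases before 248 of 606 higher genes (40.9%), 170 of 1219 lower genes (13.9%) and 1102 of all 5810 genes (19.0%). Taken the other way, 22.5% of the genes with PAC were higher and 15.4% lower, against 7.60% and 22.3% of the genes without it. The ribosome biogenesis list held PAC before 50 of 54 genes and the list of polymerases I and III before 16 of 19. The RRPE-like letters were present before 21% of higher, 5.50% of lower and 8.74% of all genes. The stress response element went the other way, with 15% of higher, 30% of lower and 22.5% of all genes. A match to these short letters describes the sequence and does not show that a protein binds there.

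Genes of amino acid and ergosterol synthesis were mostly lower in rpd3 Q cells. Of 62 amino acid biosynthesis genes 44 were lower and 1 higher, with a median change of -1.31 and medians of 36.2 FPKM in rpd3 Q cells and 102 FPKM in wild-type DS cells. All 9 arginine genes and all 8 aromatic amino acid genes were lower. LEU4, the first enzyme of leucine synthesis, had 81.3 FPKM in rpd3 Q cells and 1583 FPKM in wild-type DS cells, and the exception was GDH1, a glutamate dehydrogenase that assimilates ammonium, with 140 FPKM and 36.8 FPKM. Of 23 ergosterol genes 19 were lower and none higher, with a median change of -1.91, and ERG3, a sterol desaturase, had 7.59 FPKM in rpd3 Q cells and 186 FPKM in wild-type DS cells. BNA1, an enzyme of NAD synthesis from tryptophan, had 1.35 FPKM in rpd3 Q cells and 277 FPKM in wild-type DS cells. It was also the only gene that lay below all 5 other conditions by 2-fold on the scale per cell, the next lowest value being 4.09 FPKM in wild-type Q cells; relative to the median gene 61 genes did so.

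Genes of the cell wall and of phosphate use were lower more often than higher, as were genes in general (20.7% lower, 10.4% higher). In bins 9 and 10 of mean level, the highest, 35.4% and 44.3% of genes were lower. Single genes of the cell surface were far lower. PMA1, the plasma membrane proton pump, had 48.4 FPKM in rpd3 Q cells and 1192 FPKM in wild-type DS cells. Of 31 cell wall genes 14 were lower (45.2%) and 2 higher (6.45%). Their lead was CWP1, a mannoprotein of the wall, with 10.37 FPKM in rpd3 Q cells and 309 FPKM in wild-type DS cells. The phosphate regulon had 12 of 18 genes lower and none higher, and nitrogen catabolite genes 14 of 28 lower and 2 higher. The proline permease gene PUT4 had 7.81 FPKM in rpd3 Q cells and 460 FPKM in wild-type DS cells. Vacuolar proteases and the autophagy genes differed: PEP4 and PRC1, proteinase A and carboxypeptidase Y, had 147 and 191 FPKM in rpd3 Q cells and 855 and 1048 FPKM in wild-type DS cells, while the 22 autophagy genes had a median change of 0.02 with 1 gene lower. The proteasome genes were also close, with 1 of 35 lower, and the 17 genes of fatty acid oxidation in the peroxisome had 2 higher and 2 lower.

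**Figure D4:**
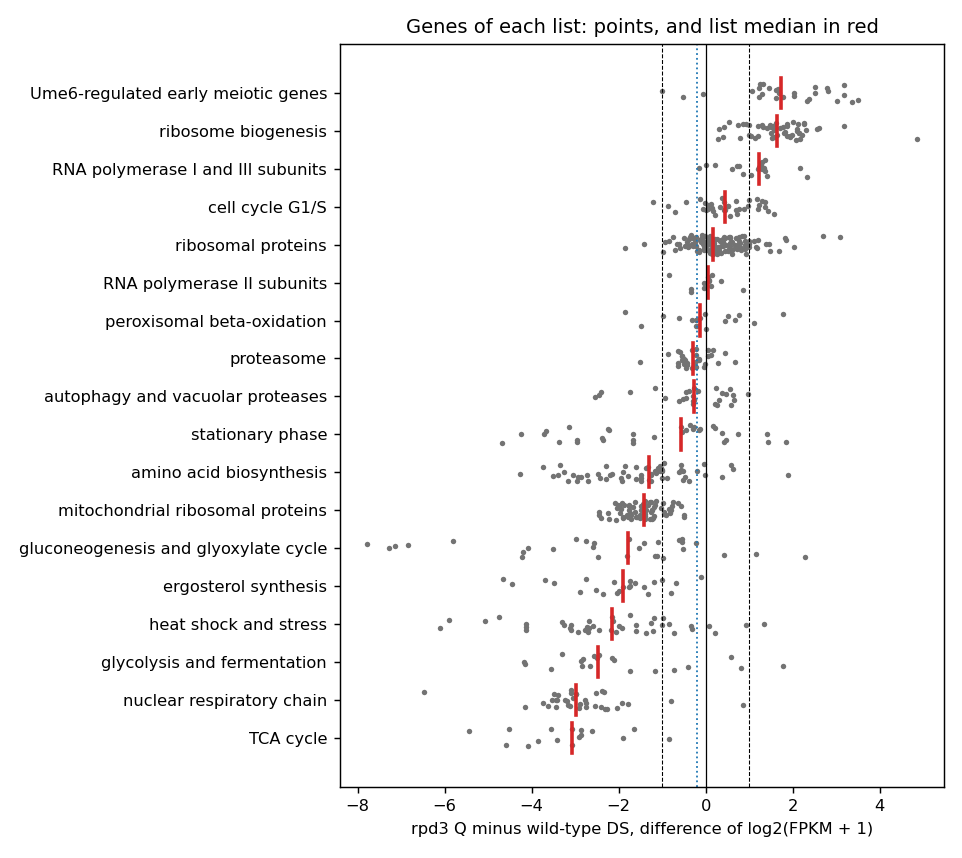
Points are genes of 18 lists at their change, rpd3 Q minus wild-type DS, as a difference of log2(FPKM + 1); the red bar is the list's median, dashed lines mark 2-fold, and the dotted blue line is the median over all genes at -0.20. Early meiotic genes (median 1.74), ribosome biogenesis (1.63) and polymerases I and III (1.22) lie to the right, and the TCA cycle (-3.07) and the nuclear respiratory chain (-2.98) farthest to the left.

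Cell cycle genes had no common direction as a whole and differed by role. Over all genes 10.4% were higher and 20.7% lower. Of 37 genes of G1 and S phase 8 were higher (21.6%) and 1 lower (2.70%), with a median change of 0.45. With a pseudocount of 10 FPKM, 1 gene passed 2-fold upwards. SMC3, a cohesin subunit, had 20.2 FPKM in rpd3 Q cells and 6.12 FPKM in wild-type DS cells, and the lower gene was the G1 cyclin CLN2 with 5.37 FPKM and 13.7 FPKM. The 8 higher genes were all among the 23 genes of DNA replication or repair, of which none was lower and the median change was 0.72. Of the 14 cyclins and regulators of this phase none was higher. Of 30 genes of G2/M and M/G1 11 were lower and 3 higher. Among these the 20 cyclins and mitotic regulators had 3 higher and 2 lower genes, and 9 of the 10 genes for the separation of daughter cells were lower, such as DSE4, a glucanase that cuts the septum, with 4.49 FPKM in rpd3 Q cells and 58.3 FPKM in wild-type DS cells. Of 11 histone genes 4 were lower and none higher.

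Markers of mating type a were present in both conditions. The a-specific pheromone gene MFA2 had 29.2 FPKM in rpd3 Q cells and 154 FPKM in wild-type DS cells. The a-specific genes MFA1, STE2 and BAR1 had 23.6, 11.4 and 1.94 FPKM in rpd3 Q cells and 62.2, 22.8 and 8.90 FPKM in wild-type DS cells. The alpha-specific genes STE3 and MF(ALPHA)1 were low, with 0.638 and 1.14 FPKM in rpd3 Q cells and 1.02 and 1.62 FPKM in wild-type DS cells. The alpha-specific genes SAG1, an agglutinin, and MF(ALPHA)2 were not near 0. They had 33.1 and 10.6 FPKM in rpd3 Q cells and 11.3 and 6.12 FPKM in wild-type DS cells. Other histone deacetylases did not pass 2-fold in any of 12 cases. Among members of the Rpd3 complexes UME6 was higher, with 16.7 FPKM in rpd3 Q cells and 5.59 FPKM in wild-type DS cells, and EAF3, a subunit of the small complex, was lower, with 52.9 FPKM and 126 FPKM. Of the 17 genes known from the literature as repressed by Rpd3, 7 were higher (41.2%) and 4 lower (23.5%), with a median change of 0.69. Over all genes the shares were 10.4% and 20.7%. Other lists hold 12 of the 17 too. Without these, only 4 phospholipid synthesis genes and 1 potassium transport gene were left. Of those left, 1 was higher and 3 lower, and the median change was -1.67. INO1, which makes inositol phosphate, had 264 FPKM in rpd3 Q cells and 53.3 FPKM in wild-type DS cells, and CHO1 and OPI3, in the same pathway of phospholipid synthesis, had 54.0 and 151 FPKM in rpd3 Q cells and 282 and 513 FPKM in wild-type DS cells. INO1, CHO1 and OPI3 were at 1970.0, 610 and 1438.2 FPKM in rpd3 DS cells.

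Genes that set rpd3 Q cells apart from every other condition were few. Of 6234 genes with 6 values 245 were highest in rpd3 Q cells (3.93%), and 43 of them exceeded all other 5 conditions by 2-fold (0.690%). With the columns centred on their median genes the count was 42, but only 11 genes were in both sets: NCA3, ICS2, IME1, HOP2, REC8, SUL1, SKS1, GAL2, YIL100W, YJL007C and YLR437C-A. The other genes of the 43 thus passed the 2-fold margin in RNA per cell but not relative to the median gene. There some may still be highest by less, while others, such as GIP2 and MIH1, were not highest. With a pseudocount of 10 FPKM 17 of the 43 passed. On the scale per cell, with a pseudocount of 1 FPKM, 74 genes exceeded all 5 other conditions by 2-fold in wild-type DS cells. The count was 74 and 67 in rpd3 log and DS cells and 57 in wild-type log cells. It was 0 in wild-type Q cells, where on this scale 5532 genes lay below all 5 other conditions by 2-fold. The genes counted had been kept for their level in rpd3 Q or wild-type DS cells only. NCA3, a protein of the SUN family, led with 157 FPKM in rpd3 Q cells and 26.4 FPKM in wild-type DS cells, and no other condition exceeded 16.7 FPKM. GIP2, a putative regulator of the Glc7 phosphatase, had 54.7 FPKM in rpd3 Q cells, 11.9 FPKM in wild-type DS cells and at most 13.4 FPKM elsewhere. MIH1, the phosphatase that activates the mitotic kinase, had 82.5 FPKM in rpd3 Q cells, 12.8 FPKM in wild-type DS cells and at most 31.2 FPKM elsewhere. In wild-type Q cells GIP2 and MIH1 had 13.4 and 24.4 FPKM. The median gene had 1.37 FPKM there and 19.0 FPKM in rpd3 Q cells, so that relative to it both were higher in wild-type Q cells.

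Of the 43 genes, 4 were on the early meiotic list, which had 26 genes with 6 values (DMC1, HOP2, MEK1 and REC8), and 4 on the middle and late sporulation list, also with 26 (MPC54, SMA1, SPO20 and SPS100). Of these 8, HOP2 and REC8 were also among the 11 that passed after centring. The other named genes of the set were IME1, DON1, SRL4, ICS2, DIA3, SUL1, BAG7, DAN1, RNR3, SSA3, TOS8, RTS3, FDH1, FDH2, SKS1, DCI1, HEF3, FAA1, DBP1, GAL2 and RGS2. REC8, the meiotic cohesin, had 11.6 FPKM in rpd3 Q cells and 3.13 FPKM in wild-type DS cells. SUL1, a sulfate permease, had 61.1 FPKM in rpd3 Q cells and 10.99 FPKM in wild-type DS cells, and FAA1, a fatty acyl-CoA synthetase, 370 FPKM and 107 FPKM. FDH1 and FDH2 are near-identical copies, and YMR084W and YMR085W are neighbouring reading frames, so their values may not be independent.

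Genes at the ends of chromosomes were lower more often. By gene order in the reference annotation, 133 genes were among the first 5 from an end, and 59 of them were lower (44.4%) and 3 higher (2.26%), with a median change of -0.86. The share lower was 30.5% for genes 6 to 10 from the end, 21.9% for genes 11 to 20, 17.6% for genes 21 to 40 and 20.4% beyond. Leaving out the COS, PAU and YRF1 families, multigene families whose copies share reads, 48 of 110 of the outermost genes were lower (43.6%). The outermost genes had a median of 4.10 FPKM in rpd3 Q cells and 10 FPKM in wild-type DS cells, 8.63 and 5.27 FPKM in rpd3 log and DS cells and 15.7 and 0.815 FPKM in wild-type log and Q cells. The values of rpd3 cells lay below those of wild type in log and DS cells, and above in Q cells. Genes elsewhere were also higher in rpd3 Q than in wild-type Q cells, and by more. The median difference (log2) was 1.60 for the outermost genes and 2.89 for genes beyond the first 40. The same differences between genotypes were -0.50 and 0.27 in log cells and -0.45 and 0.67 in DS cells. SEO1, a putative permease 3 genes from an end, had 0.0400 FPKM in rpd3 Q cells and 9.45 FPKM in wild-type DS cells, and the aldehyde reductase-like gene YML131W had 7.09 FPKM and 165 FPKM. IMD2, an IMP dehydrogenase, had 0.411 FPKM in rpd3 Q cells and 15.3 FPKM in wild-type DS cells; it, PHO11 and PHO12, SNZ2 and SNZ3, HSP32 and HSP33, and the COS genes have near-identical copies, and their single values are uncertain.

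**Figure D5:**
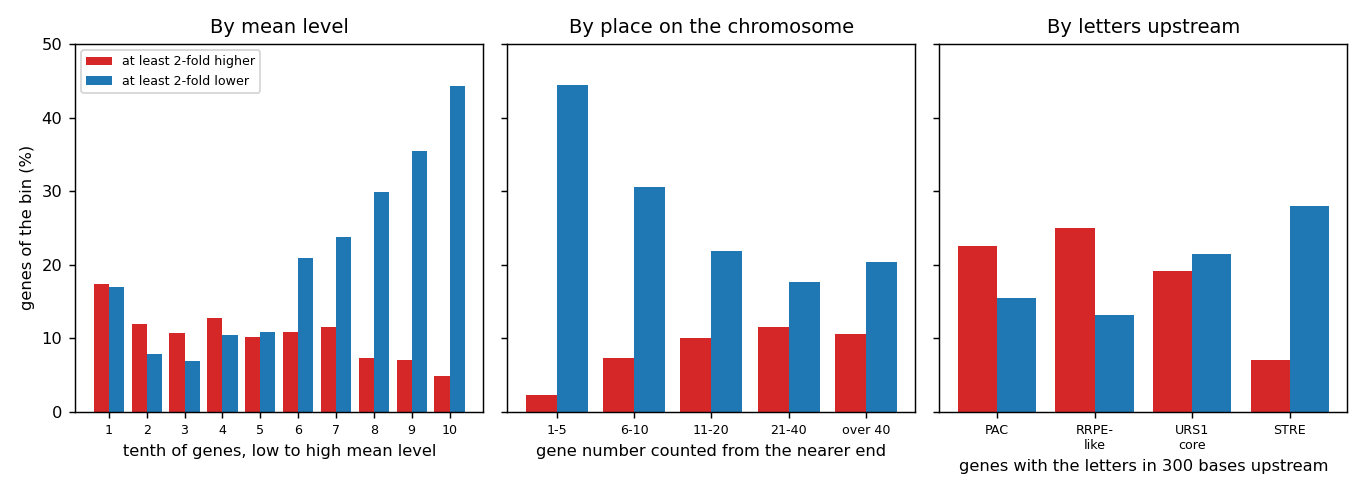
Percentage of genes at least 2-fold higher (red) and lower (blue) in rpd3 Q than in wild-type DS cells, by bin of mean level (10 bins, low to high), by place of the gene counted from the nearer chromosome end, and among genes with each motif within 300 bases upstream. The share lower reaches 44.3% in the highest bin and 44.4% in the outermost genes, and the share higher is 22.5% with PAC.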

How the data were processed

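The authors deposited 1 table of log2 FPKM values with 6 columns, rescaled by the spike-ins to stand for RNA per cell according to the series design text; how the 2 isolates of a condition were combined is not stated. Per the submitters' processing notes the tools were TopHat2, Cufflinks 2.2.1, Cuffdiff, SAMtools and CASAVA; for the genome build and the annotation, these were not given in the sources used here. Of 6602 named rows, 4 rows of 2 repeated names were left out. In the rpd3 DS column 110 rows at the end of the table were left out, since 107 repeat the start of the rpd3 Q column. No column was unused.

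Values were turned back to FPKM, and changes were taken as differences of log2(FPKM + 1) with python 3.11.15, numpy 2.4.6 and pandas 2.3.3; the counting was tested on simulated data. Depth per library is unknown. Of the names, 5967 matched the R64 reference annotation (RefSeq), used for upstream sequence, length and gene order, and 631 did not; no position is given because the authors' build is not known.

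The comparison, the 36 gene lists and the rules were chosen with earlier results of these data known. Named genes were first the 15 largest changes each way among genes of at least 7.38 FPKM (the 25th percentile) in either condition. Genes with only a systematic name were passed over there below rank 3. Named too were those farthest outside all other conditions, the leading and opposing members of each list, RPD3 and marker genes. Others, such as PMA1, NME1, RPR1, HXT6, HXT7, MIH1, SUL1 and the genes at chromosome ends, were chosen after their values were seen. Lists whose counts are given only here were iron uptake 3 of 18 higher and 3 lower, haploid-specific genes 1 of 13 higher and 3 lower, a-specific genes 0 of 7 higher and 3 lower, alpha-specific genes 1 of 4 higher, members of the Rpd3 complexes 1 of 14 higher and 2 lower, and the COS, PAU and YRF1 families 1 of 31 higher and 12 lower. The lower members of the Rpd3 complexes were EAF3 and the deleted gene RPD3 itself, whose low value the genotype sets. Alternatives were other pseudocounts, filters and centring.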

Additional observations from a re-analysis of the deposited data

How the results depend on the processing

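No paired analysis was possible because the deposited table holds 1 column per condition, so neither a replicate block on the isolate number nor leaving out an isolate could be run. Against 664 higher and 1318 lower genes and a median change of -0.197, a pseudocount of 10 FPKM gave 267 higher and 896 lower genes and a median of -0.121. Centring each column gave 736, 1188 and -0.12, and every one of the 664 higher and 1188 of the 1318 lower genes kept its call. The median was -0.211 with a pseudocount of 0.1, -0.213 with none, -0.19 with no filter on low values and -0.257 for genes of at least 10 FPKM in either condition. Numbers of genes 2-fold apart from rpd3 Q cells, for rpd3 DS, wild-type DS, rpd3 log, wild-type log and wild-type Q cells in this order, were 884, 1069, 1232, 1547 and 1606 with a pseudocount of 10, and 982, 1144, 1361, 1539 and 1684 over 3629 genes with at least 1 FPKM in all conditions, an alternative chosen after seeing the data. Without centring they were 2719, 1948, 4364, 3759 and 5980. Of genes above all other conditions by 2-fold, 17 were left with a pseudocount of 10; of genes below, 61 with centring and 0 with a pseudocount of 10.

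The median of 1 list changed sign: the 17 genes known as repressed by Rpd3 had 0.694, and -1.674 without the 12 members that other lists hold. All 12 list medians of at least 2-fold kept their sign, and 12 were still at least 2-fold after centring and 9 with a pseudocount of 10. Of 182 named genes at least 2-fold apart, 179 remained so after centring and 146 with a pseudocount of 10. With an unknown depth and single pooled values, neither counting error nor the spread between isolates can be stated, and a value at or near 0 has no known detection limit.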
